A study of Mus musculus with 6 samples.

Results

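Kinesins, cytoplasmic dynein and dynactin were described in N2a cells transfected with si-NC or si-circRtn4. The genes were all protein-coding entries of the deposited table whose symbol began with Kif followed by a digit or c, Klc or Dctn followed by a digit, Dync or Dynl. This gave 69 of the 54532 genes listed, of which 22046 were protein-coding. They were sorted by known role into 18 transport kinesins, 14 mitotic kinesins, 10 other kinesins, 4 kinesin light chains, 5 heavy, intermediate and light intermediate chains of dynein-1, 2 chains of dynein-2, 9 dynein light chains and 6 dynactin subunits. The remaining gene, Kif1bp, matched by its name but encodes a protein that binds kinesin motor domains and is not itself a motor.

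N2a (Neuro2A) is a mouse neuroblastoma line, for which the labels give the strain as C57BL/6 and the growth medium as MEM with 10% FBS. The 6 libraries, 3 per group, came from these cells after transfection with si-NC, the control siRNA, or with si-circRtn4, an siRNA against circRtn4, the circular RNA made from the Rtn4 gene. The study asked which genes differ between cells given these siRNAs. The culture methods of the study describe a change of N2a cells to a retinoic acid differentiation medium after transfection, but the sources used here do not say whether the sequenced cells went through this step. All libraries came from the same line, so a result holds for that line only. The sources also do not say whether libraries of a group came from separate cultures, so the p-values measure only the spread between these samples, which may be technical.

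Kinesins and dynein are ATP-driven motors that walk along microtubules. In neurons, transport kinesins carry vesicles, mitochondria and RNA mostly toward the axon tip, and dynein, held to its cargo by dynactin, carries cargo back to the cell body. Another set of kinesins builds the mitotic spindle, moves chromosomes and divides the cell, and its members are made mainly by cycling cells.

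Of the 69 genes, 52 had a mean of at least 1 FPKM (fragments per kilobase of gene, scaled to library size) over the 6 libraries and were tested, and 17 fell below this level. Over the whole table, 12749 genes were tested and 9.19% of them differed between the groups at an adjusted p under 0.05 in limma, with 4.36% higher and 4.82% lower in the si-circRtn4 libraries. Of the 52 motor genes, 2 differed (3.85%), a share that was not tested against the background. Kif3c, a transport kinesin, was higher and Kif18b, a mitotic kinesin, was lower. Without si-NC replicate 1 the motor share was 7.69%, beside 6.48% of all genes. In the other fits that left out a library it was 0% to 1.92%, beside 2.98% to 5.74% of all genes. Groups did not overlap for 13 of the 52 motor genes (25%), against 31.7% of all genes tested. Libraries of the same replicate number deviated alike, but the fit above was unpaired. With the number as a block 3 motor genes were higher and 4 lower (13.5%), against 19.0% of all genes tested.

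The median log2 fold change of the 52 motor genes was -0.079, beside 0.0020 for all genes tested, with 16 above and 36 below 0. With each library rescaled to the same FPKM sum the median was 0.0035 beside 0.082 for all genes, and 27 were above and 25 below 0. Rescaling without Gm23935, the gene with the highest FPKM, left the median at -0.059, with 17 above and 35 below 0. Rescaling moves all genes of a library alike. In bulk RNA, fewer cells of a type and less RNA per cell cannot be told apart.

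**Figure D1:**
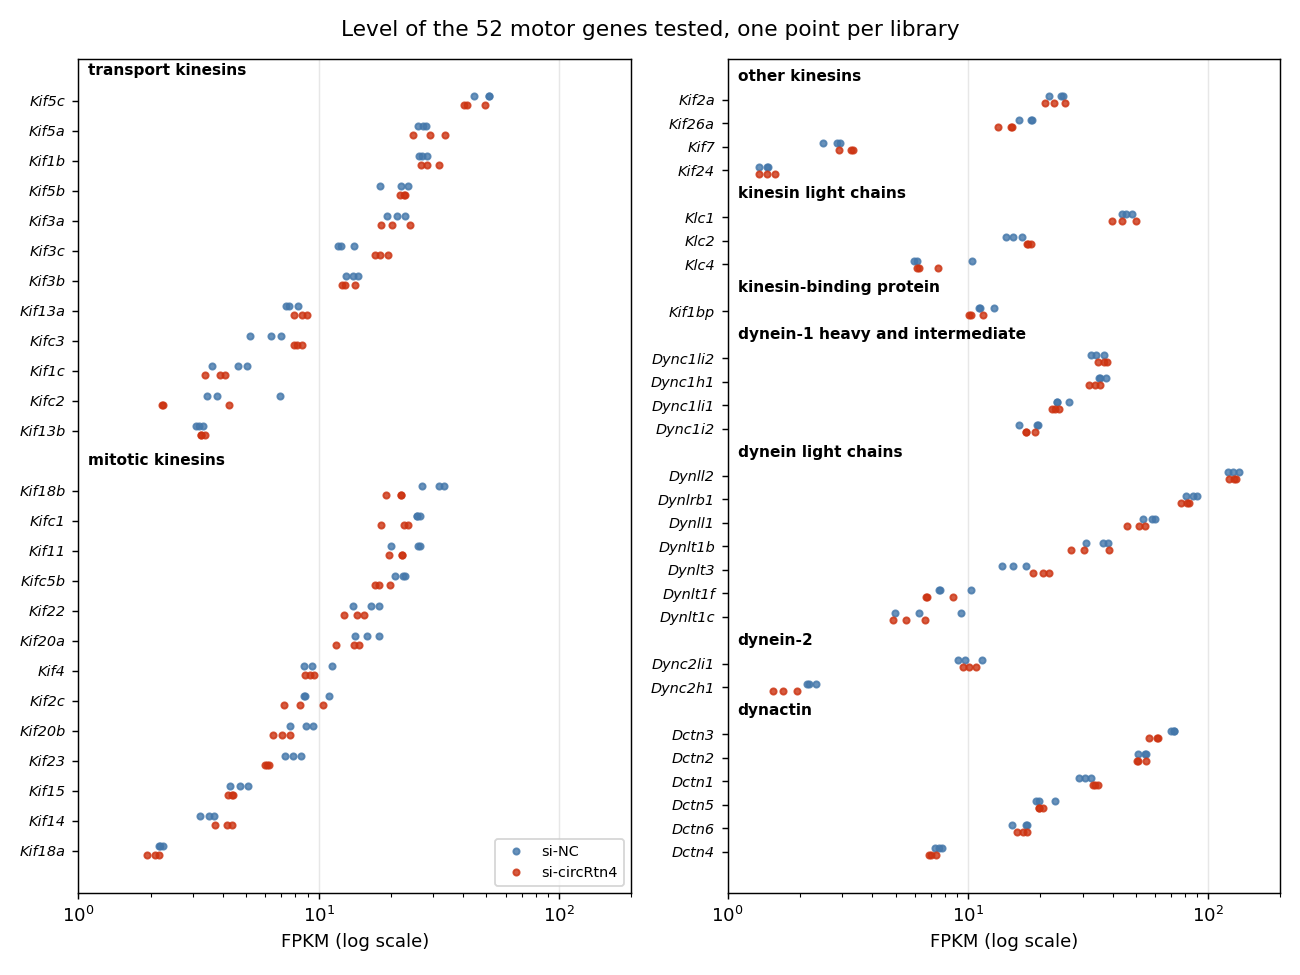
FPKM on a log axis of the 52 motor genes tested, with a point per library, with si-NC in blue and si-circRtn4 in red, sorted by mean within each class. Dynll2 was the most abundant, at 121 to 134 FPKM, and the red and blue points of most genes lie over each other.

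The deposited values came from 13541198 to 15122063 reads per library, with the ranges of the groups overlapping. The Rtn4 gene read 61.0, 66.8 and 69.8 FPKM with si-NC and 50.1, 56.7 and 62.7 with si-circRtn4 (log2 fold change -0.22 ± 0.10 SE, limma adjusted p = 0.22, and 0.045 with the replicate block). FPKM per gene does not separate the circular from the linear RNA, so the targeted molecule itself was not checked here. By qRT-PCR in N2a cells, the study reported lower circRtn4 after the siRNA and no significant change of linear Rtn4 mRNA. Chd5, the chromatin remodeller named by the study, read 11.8, 9.83 and 9.52 FPKM with si-NC and 3.99, 3.53 and 3.97 with si-circRtn4 (log2 fold change -1.23 ± 0.098 SE, limma adjusted p = 0.0014). Of 14 neuroblast markers 13 were above the filter, against 0 of 6 fibroblast, 0 of 5 myeloid and 1 of 7 glial markers. The neuroblast markers summed to 1389 to 1495 FPKM with si-NC and 886 to 1231 with si-circRtn4. In limma 5 of the 13 were called lower and 1 higher (46.2%), against 9.19% of all genes tested. Their part in the motor results was not tested.

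The transport kinesins were near level as a group. Of 18, 12 were tested, 7 were above and 5 below 0, their median log2 fold change was 0.061, and only Kif3c was called. That was 8.33%, against 9.19% of all genes tested. The FPKM of all 18 summed to 200.3, 195.9 and 200.04 with si-NC and 211, 190 and 212 with si-circRtn4 (exact permutation p = 0.5, two-sided, where 0.1 is the smallest that 3 against 3 libraries allow). The si-circRtn4 sums lay on both sides of the si-NC sums.

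Kif3c, a kinesin-2 heavy chain that pairs with Kif3a and is enriched in neurons, rose. Its level was 14.02, 12.4 and 12.1 FPKM with si-NC and 19.5, 17.2 and 18.03 with si-circRtn4, from 1253 to 2056 reads per library. Every si-circRtn4 library lay above every si-NC library, and the mean was 142% of that of si-NC (log2 fold change 0.48 ± 0.085 SE, limma adjusted p = 0.017, and 0.0070 with the replicate block). Leaving out replicate 2 or 3 of si-NC gave a limma adjusted p of 0.071 or 0.057, and leaving out replicate 1 of si-circRtn4 gave 0.056, with a log2 fold change of 0.43 to 0.45. The gene lies at chr12:3365132-3406494 on the plus strand, and 40.7% of its exon bases are shared with other annotated genes, among them 1110002L01Rik on the opposite strand. That gene read 2.54 to 2.98 FPKM with si-NC and 3.31 to 3.49 with si-circRtn4 (log2 fold change 0.21, limma adjusted p = 0.20). Whether the counting used strand is not given in the sources used here, so reads of this pair cannot be told apart in the shared bases.

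The partners of Kif3c in kinesin-2 did not pass the test. Kif3a, the common subunit, read 22.9, 19.3 and 21.2 FPKM with si-NC and 24.0, 18.1 and 20.3 with si-circRtn4 (log2 fold change -0.030 ± 0.11 SE). Kif3b, the alternative to Kif3c in the same position and named here after its values were seen, read 14.7, 13.0 and 13.97 FPKM with si-NC and 12.8, 12.5 and 14.2 with si-circRtn4 (log2 fold change -0.071 ± 0.080 SE). The groups overlapped for both genes. The ratio of Kif3c to Kif3b was 0.956, 0.950 and 0.865 with si-NC and 1.52, 1.37 and 1.27 with si-circRtn4, given as a description because Kif3c was singled out for its change. By FPKM, Kif3b read higher of the pair in each si-NC library and Kif3c in each si-circRtn4 library. The shared exon bases of Kif3c leave part of its value, and so this order, uncertain.

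**Figure D2:**
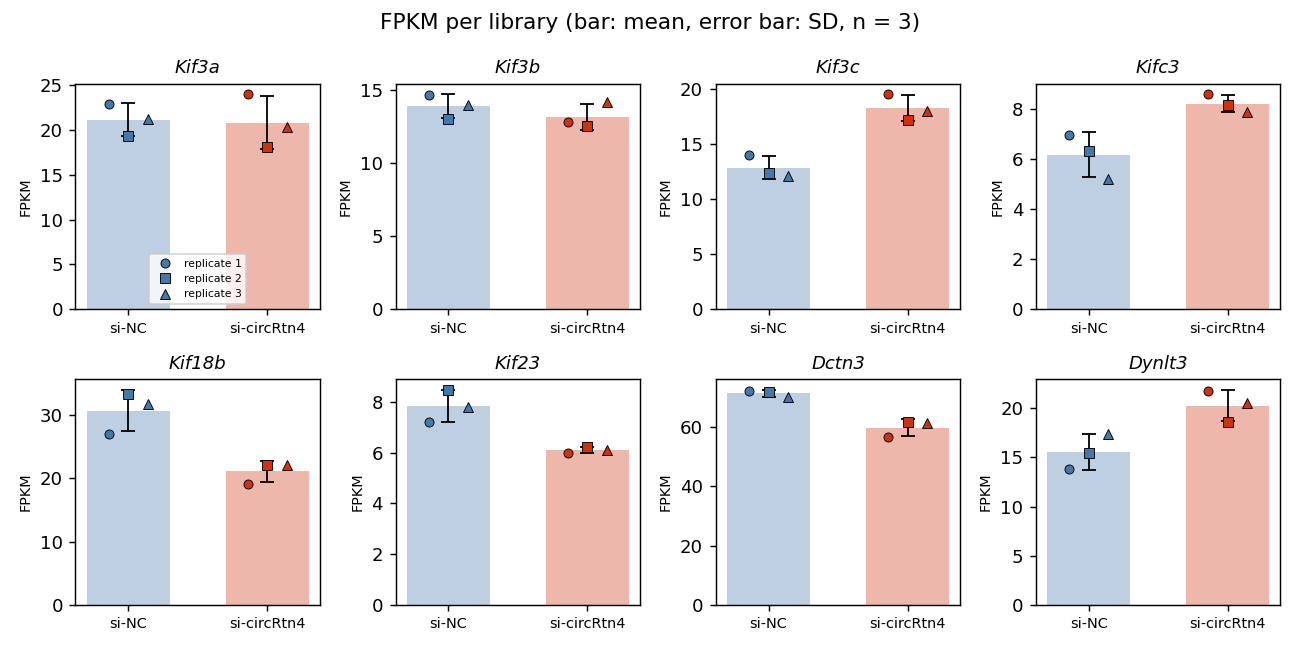
FPKM per library of 8 motor genes, with bars at the mean, error bars of 1 SD (n = 3) and marker shapes for the replicate number. Kif3c, Kifc3 and Dynlt3 have all red points above the blue points and Kif18b, Kif23 and Dctn3 have them all below, while the groups overlap for Kif3a and Kif3b.

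The study centred on miR-24-3p, so the sites for this miRNA and for the guide strand of the siRNA are shown in the 3′ UTRs of the tested transport kinesins with the highest and the lowest log2 fold change. The miRNA is from RefSeq and the guide is the reverse complement of the strand the study lists. Capitals mark bases 2 to 8, the seed, in the oligonucleotides and the matching 7 bases in the UTRs, which come from GENCODE M21 transcripts.
miR-24-3p: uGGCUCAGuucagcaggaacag
si-circRtn4 guide: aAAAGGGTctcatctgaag
Kif3c, miR-24-3p site: gctcttaactgCTGAGCCacgtctggctg
Kifc2, miR-24-3p site: tccacccccagCTGAGCCacaggccctta
Kifc2, first guide site: ttcatttcttaACCCTTTccctgaaaggt
Kifc2, second guide site: tagcagagacaACCCTTTctggagtaacc
The site CTGAGCC was present in the 3′ UTR of 8 of the 52 motor genes tested (15.4%), against 19.6% of 10688 genes tested with a 3′ UTR. The site ACCCTTT was present in 3 of 52 (5.77%), against 12.5%. The 3′ UTRs of the motor genes were shorter, with a median of 798.5 bases against 1170. In both Kif3c, which was higher with si-circRtn4, and Kifc2, whose log2 fold change was -0.53, the miR-24-3p site was followed by an A, which makes it an 8-base match. Kif18b held neither site. A match of letters is a description and not evidence of binding.

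Kifc2, a minus-end kinesin expressed in neurons, had the log2 fold change farthest from 0 of the 12 transport kinesins tested, and the largest SE of them. It read 6.91, 3.44 and 3.78 FPKM with si-NC and 4.24, 2.24 and 2.26 with si-circRtn4, and the groups overlapped (log2 fold change -0.53 ± 0.26 SE, limma adjusted p = 0.25). In each group replicate 1 was highest and each si-circRtn4 library lay below the si-NC library of its number, and with the replicate block the limma adjusted p was 0.012. Leaving out a library moved its log2 fold change between -0.27 (si-NC replicate 1 omitted) and -0.76 (si-circRtn4 replicate 1 omitted). Kif3c lay farther from 0 than Kifc2 in the first of these and in TPM, where Kifc2 was at -0.46. Kifc3, another minus-end kinesin, named after its values were seen, read 6.97, 6.32 and 5.19 FPKM with si-NC and 8.57, 8.15 and 7.88 with si-circRtn4 (log2 fold change 0.37 ± 0.10 SE, limma adjusted p = 0.069, and 0.026 with the replicate block). The groups of Kifc3 did not overlap. Of its exon bases 27.5% are shared with other annotated genes, so part of its value is uncertain.

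The Kif5 genes encode alternative heavy chains of conventional kinesin, the main anterograde motor of axons. Kif5c was the most abundant transport kinesin, at 44.4, 51.2 and 51.5 FPKM with si-NC and 40.5, 41.4 and 49.4 with si-circRtn4 (log2 fold change -0.16 ± 0.10 SE, limma adjusted p = 0.37). Kif5a, the neuronal form, read 27.3, 25.9 and 28.0 FPKM with si-NC and 29.2, 24.7 and 33.7 with si-circRtn4 (0.097 ± 0.11 SE on the log2 scale). Kif5b, the form found in most tissues, read 18.03, 22.0 and 23.5 FPKM with si-NC and 22.8, 21.8 and 22.8 with si-circRtn4 (0.089 ± 0.10 SE on the log2 scale). The groups overlapped for each of the Kif5 genes.

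Their FPKM summed to 97.2 ± 6.81 (SD, n = 3) with si-NC and 95.4 ± 9.31 with si-circRtn4 (exact permutation p = 0.9, two-sided). Kif5c made up 49.5%, 51.7% and 49.98% of this sum with si-NC and 43.8%, 47.1% and 46.7% with si-circRtn4. These shares did not overlap, which gives the smallest exact permutation p of 0.1. The shares of Kif5a (exact permutation p = 0.2) and Kif5b (exact permutation p = 0.3) overlapped between the groups.

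Kif1b, a kinesin-3 that carries mitochondria and synaptic vesicle precursors, read 28.3, 26.8 and 26.2 FPKM with si-NC and 31.8, 26.8 and 28.2 with si-circRtn4 (log2 fold change 0.088 ± 0.084 SE, limma adjusted p = 0.56). Kif1a, the kinesin-3 that carries synaptic vesicle precursors in neurons, had 0 to 4 reads per library and was not tested. Kif16b, Kif17, Kif21a, Kif21b and Kif28 were also below the filter. Among these, Kif21b had the most reads, at 0.304, 0.171 and 0.194 FPKM with si-NC and 0.825, 0.638 and 0.469 with si-circRtn4. These groups did not overlap, but in the fit over all detected genes its adjusted p was 0.13 in limma.

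The mitotic kinesins read lower with si-circRtn4 in most members, though a single gene passed the test. Of 14, 13 were tested, 12 were below 0 and 1 above, with a median log2 fold change of -0.17, beside 0.0020 for all genes tested. Kif18b was the only one called (7.69%, against 9.19% of all genes tested). At an unadjusted p under 0.05, 5 were lower, against 12.8% of all genes tested. With libraries rescaled to the same FPKM sum, 11 of 13 were below 0 and the median was -0.083, beside 0.082 for all genes tested. Rescaling without Gm23935 left 12 below 0 and a median of -0.15, beside 0.021 for all genes tested. The FPKM of all 14 summed to 165, 196 and 182 with si-NC and 137, 155 and 162 with si-circRtn4. The sums did not overlap and their mean with si-circRtn4 was 83.6% of that with si-NC (exact permutation p = 0.1, two-sided, the smallest possible). The FPKM of all genes also summed lower with si-circRtn4, at 344732 to 370231 against 374443 to 384849 with si-NC. These sums include Gm23935, which is 57 bases long and had the highest FPKM. Rescaling without it moved the median of all genes less, as given above. With the libraries rescaled to the same FPKM sum, Gm23935 included, the mitotic kinesin sums of the groups overlapped.

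Kif18b, a kinesin that shortens microtubules at their plus ends in mitosis, fell. It read 27.0, 33.2 and 31.7 FPKM with si-NC and 19.1, 22.1 and 22.0 with si-circRtn4, from 970 to 1712 reads per library. The lowest si-NC library lay above the highest si-circRtn4 library, and the si-circRtn4 mean was 68.8% of the si-NC mean (log2 fold change -0.52 ± 0.10 SE, limma adjusted p = 0.022, and 0.0055 with the replicate block). The limma adjusted p was 0.072 when all detected genes were tested. Leaving out replicate 2 or 3 of si-NC gave 0.084 or 0.071, and leaving out replicate 1, 2 or 3 of si-circRtn4 gave 0.069, 0.060 or 0.0501.

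Kif23, which with Racgap1 forms the complex that bundles the central spindle, was named after its values were seen. It read 7.22, 8.46 and 7.81 FPKM with si-NC and 5.98, 6.23 and 6.12 with si-circRtn4, without overlap (log2 fold change -0.31 ± 0.079 SE, limma adjusted p = 0.052, and 0.028 with the replicate block). Kif11, the kinesin that pushes the spindle poles apart, read 20.02, 26.4 and 25.9 FPKM with si-NC and 19.6, 22.2 and 22.3 with si-circRtn4 (log2 fold change -0.16 ± 0.12 SE, limma adjusted p = 0.45). The groups of Kif11 overlapped because si-NC replicate 1 was as low as the si-circRtn4 libraries. Kif14, which acts in cytokinesis and was also named after its values were seen, was the only mitotic kinesin above 0, at 3.22, 3.68 and 3.51 FPKM with si-NC and 3.70, 4.16 and 4.36 with si-circRtn4 (log2 fold change 0.18 ± 0.093 SE, limma adjusted p = 0.27). Kifc1 and Kifc5b share 47.6% and 42.1% of their 50-base windows with other genes, mostly each other, so their values are uncertain. Kif2b was at 0 reads in all libraries.

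**Figure D3:**
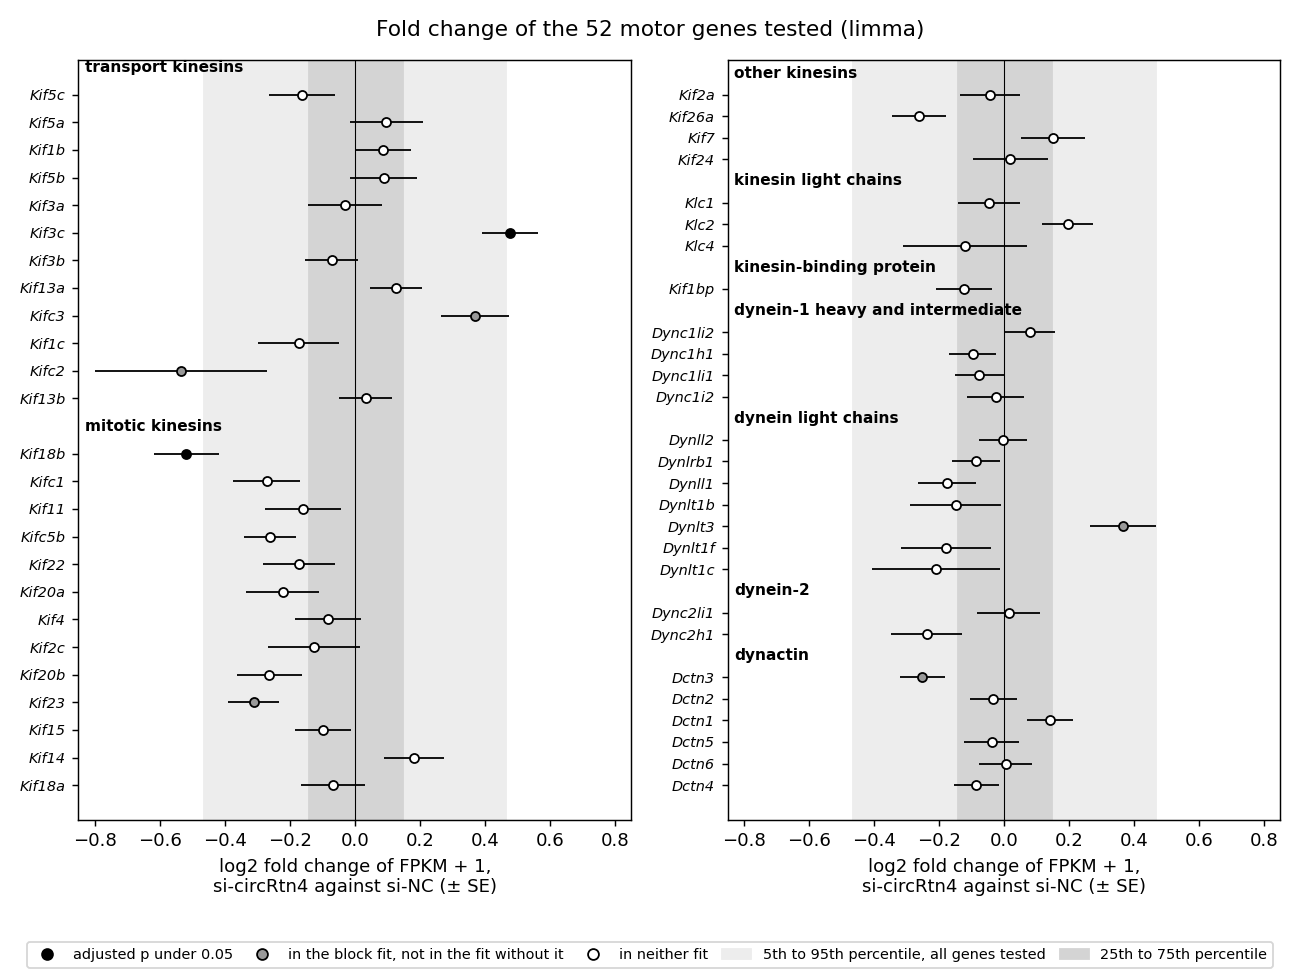
Log2 fold change (± SE) of FPKM + 1 of the 52 motor genes tested, si-circRtn4 against si-NC, by class, over bands holding the 25th to 75th (-0.14 to 0.15) and 5th to 95th percentiles (-0.46 to 0.47) of all genes tested. Black points (Kif3c, Kif18b) passed an adjusted p of 0.05, grey points passed it in the fit with the replicate block but not in the fit without it, and 12 of the 13 mitotic kinesins lie left of 0.

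The mitotic kinesins shared letters in their promoters. The motifs TTTGAA (the cell cycle homology region, found near the start of many genes expressed in late cell cycle) and CCAAT were searched for on both strands from 250 bases before to 50 after the start, in RefSeq windows of GRCm38.p6. These motifs were chosen from knowledge of cell cycle promoters after the expression values were seen. Kif20a had no entry, and Kif2b, which had no reads, is among the windows. The 13 transport kinesin windows came from 11 of the 18 genes, with more than 1 window for Kif1a and for Kif1b. They include Kif1a, Kif16b, Kif17 and Kif21a, which were below the filter. The windows of Kifc1 and Kifc5b hold largely the same letters and are counted separately. TTTGAA was present in 11 of 13 mitotic kinesin windows (84.6%), in 1 of 13 transport kinesin windows and in 11.5% of 10947 windows of protein-coding genes tested. CCAAT was present in 9 of 13 (69.2%), in 4 of 13 and in 38.4%, and the windows with both made up 61.5% of the mitotic kinesin windows and 4.78% of those of genes tested. The stretches below run from 120 bases before to 50 after the start, with motif matches in capitals on the gene's strand, where TTCAAA and ATTGG are the reverse complements. They are shown for the mitotic kinesin that fell, for Kif23 and Kif11, and for Kif3c, which holds neither motif in this stretch.
Kif18b, chr11:102925075-102925244, minus strand: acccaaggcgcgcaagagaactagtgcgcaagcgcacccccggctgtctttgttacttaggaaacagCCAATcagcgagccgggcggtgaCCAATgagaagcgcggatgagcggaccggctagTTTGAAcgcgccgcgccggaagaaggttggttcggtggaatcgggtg
Kif23, chr9:61946750-61946919, minus strand: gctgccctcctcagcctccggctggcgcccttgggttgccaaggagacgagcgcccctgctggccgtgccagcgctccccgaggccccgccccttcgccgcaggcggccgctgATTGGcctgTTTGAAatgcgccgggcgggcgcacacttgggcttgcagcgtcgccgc
Kif11, chr19:37376262-37376431, plus strand: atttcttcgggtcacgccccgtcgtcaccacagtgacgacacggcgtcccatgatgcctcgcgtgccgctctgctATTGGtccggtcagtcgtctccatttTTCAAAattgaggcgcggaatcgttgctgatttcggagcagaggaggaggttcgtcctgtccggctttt
Kif3c, chr12:3365012-3365181, plus strand: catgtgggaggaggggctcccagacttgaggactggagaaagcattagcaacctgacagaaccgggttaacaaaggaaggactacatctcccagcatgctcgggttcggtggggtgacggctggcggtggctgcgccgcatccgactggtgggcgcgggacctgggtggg
Kif18b held TTTGAA from position 4 and Kif23 from position 3, with the start as position 1. Kif11 held its reverse complement from 19 bases before the start. Not all matches counted lay so near, as the only one in Kif14 began 228 bases and that in Kif2c 103 bases before the start. A match is a description and not a bound site, and Kif11, which did not pass the test, held the same motifs as Kif18b, which did.

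Other genes of division were read beside the mitotic kinesins. Of 12 mitotic partners (spindle and kinetochore proteins) 11 were below 0, the median log2 fold change was -0.15, and 0 were called in limma, with 4 lower at an unadjusted p under 0.05, 4 lower with the replicate block and 2 lower in limma-voom on recovered reads. Of all genes tested, 12.8%, 9.75% and 5.66% were lower in these ways. Of 21 cell cycle genes 18 were below 0, the median was -0.13, and 0 were called in limma, with 3 lower at an unadjusted p under 0.05, 6 lower with the replicate block and 0 in limma-voom. The median deviation of the mitotic kinesins from the si-NC mean was -0.11, 0.12 and -0.00056 on the log2 scale with si-NC and -0.34, -0.16 and -0.096 with si-circRtn4. For the cell cycle genes it was -0.23, 0.17 and 0.074 with si-NC and -0.33, -0.027 and -0.088 with si-circRtn4. Replicate 1 was the lowest of each group in both lists, and the groups overlapped. Within each replicate number the si-circRtn4 library was the lower one in both lists. The part of the cell cycle genes in the level of the mitotic kinesins was not tested.

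**Figure D4:**
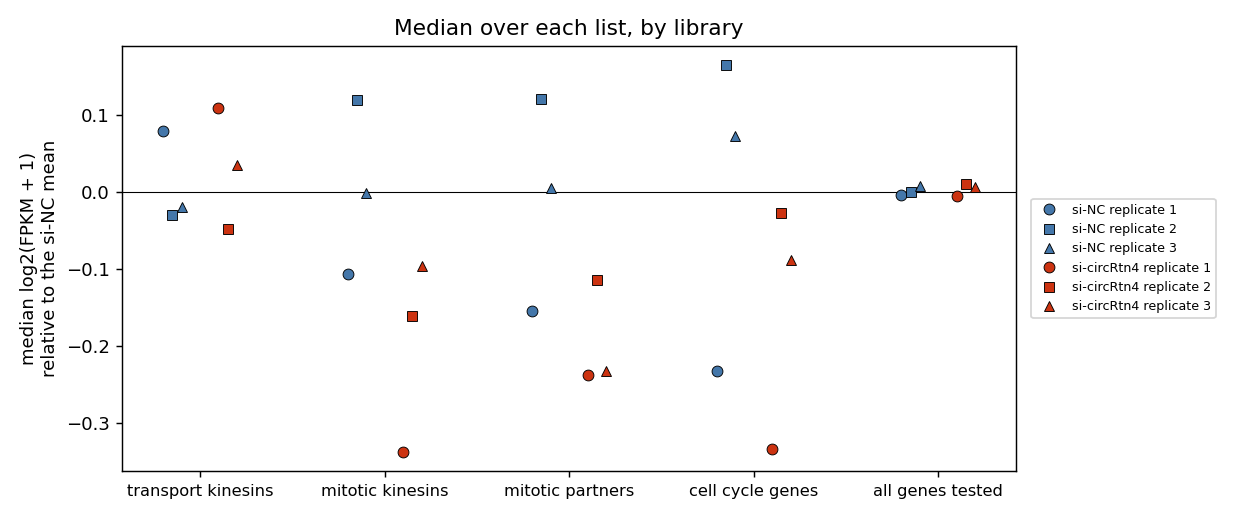
Median over each list of log2(FPKM + 1) relative to the si-NC mean, with a point per library, with marker shapes for the replicate number. Mitotic kinesins, mitotic partners and cell cycle genes lie lowest in replicate 1 of each group, down to -0.34 for the mitotic kinesins, and all genes tested stay near 0.

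The other kinesins have roles at cilia, centrioles and microtubule ends. Of 10, 4 were tested and 0 were called in limma, against 9.19% of all genes tested. At an unadjusted p under 0.05, 1 was lower, against 12.8%, and 0 passed in limma-voom or with the replicate block. Kif2a, which shortens microtubules and trims neurites, was the most abundant, at 21.8, 24.8 and 24.4 FPKM with si-NC and 22.8, 20.9 and 25.3 with si-circRtn4. Kif26a, a kinesin without motor activity, read 18.4, 16.3 and 18.3 FPKM with si-NC and 13.4, 15.2 and 15.1 with si-circRtn4, without overlap (log2 fold change -0.26 ± 0.084 SE, limma adjusted p = 0.099).

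The kinesin light chains link conventional kinesin to its cargo. Klc1, the most abundant, read 43.9, 45.4 and 48.3 FPKM with si-NC and 39.8, 43.8 and 50.01 with si-circRtn4, and the groups overlapped. Klc2 read 16.8, 14.4 and 15.5 FPKM with si-NC and 17.6, 17.9 and 18.3 with si-circRtn4, without overlap (log2 fold change 0.20 ± 0.078 SE, limma adjusted p = 0.17). Kif1bp read 11.1 to 12.8 FPKM with si-NC and 10.1 to 11.6 with si-circRtn4.

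The dynein chains and the dynactin subunits with Dctn names held no called gene. Actr1a, another dynactin subunit, was called lower and is given with the transport partners. Of the 22 genes with Dync, Dynl or Dctn names 19 were tested and 0 were called in limma, against 9.19% of all genes tested. At an unadjusted p under 0.05, 1 was higher and 1 lower, against 13.1% and 12.8% of all genes. With the replicate block 1 was higher and 1 lower, against 9.29% and 9.75%, and in limma-voom 1 was higher, against 7.08%. Dync1h1, the heavy chain that makes the force, read 37.4, 35.6 and 35.2 FPKM with si-NC and 35.5, 31.8 and 33.7 with si-circRtn4 (log2 fold change -0.097 ± 0.072 SE, limma adjusted p = 0.45). Dync1li2, a light intermediate chain that binds cargo adaptors, was the most abundant of its class, at 32.5 to 36.7 FPKM with si-NC and 34.8 to 37.8 with si-circRtn4. Both overlapped between the groups.

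Dynein-2 works inside cilia. Its heavy chain Dync2h1 read 2.17, 2.15 and 2.34 FPKM with si-NC and 1.95, 1.71 and 1.55 with si-circRtn4, without overlap (log2 fold change -0.24 ± 0.11 SE, limma adjusted p = 0.22). Dync2li1 read 9.06 to 11.4 FPKM with si-NC and 9.51 to 10.8 with si-circRtn4.

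Among the dynein light chains, Dynll2, of the LC8 type, was at 134, 127 and 121 FPKM with si-NC and 131, 122 and 128 with si-circRtn4. Dynlt3, a Tctex-type chain, read 13.8, 15.5 and 17.4 FPKM with si-NC and 21.7, 18.6 and 20.5 with si-circRtn4. Its groups did not overlap (log2 fold change 0.37 ± 0.10 SE, limma adjusted p = 0.065, and 0.046 with the replicate block). Dynlt1b, Dynlt1c and Dynlt1f share 83.2%, 93.7% and 93.1% of their 50-base windows with other genes, mostly each other, so their values are uncertain.

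In dynactin, Dctn1, the subunit that grips both dynein and the microtubule, read 32.4, 30.8 and 28.9 FPKM with si-NC and 34.7, 33.3 and 33.7 with si-circRtn4, without overlap (log2 fold change 0.14 ± 0.071 SE, limma adjusted p = 0.27). Dctn3, a small subunit of the dynactin shoulder, read 72.0, 71.8 and 69.95 FPKM with si-NC and 56.6, 61.5 and 61.1 with si-circRtn4. These did not overlap either (log2 fold change -0.25 ± 0.069 SE, limma adjusted p = 0.064, and 0.036 with the replicate block).

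The proteins that link motors to cargo, with dynactin subunits outside the Dctn names, were read as a list of 35 transport partners. Of these, 31 were tested. In limma 2 were higher and 3 lower (16.1%), against the background of 9.19%, with a median log2 fold change of 0.0054. Actr1a, the actin-related protein that forms the dynactin filament, read 67.7, 66.6 and 66.8 FPKM with si-NC and 42.5, 47.8 and 48.8 with si-circRtn4 (log2 fold change -0.53 ± 0.077 SE, limma adjusted p = 0.0091). Rhot2, a mitochondrial anchor for motors, and Hook3, a dynein adaptor, were also lower, at log2 fold changes of -0.47 and -0.40 (limma adjusted p = 0.042 for each). Arl8a, a GTPase that couples lysosomes to kinesin, and Hook2, another adaptor, were higher, at log2 fold changes of 0.47 and 0.35 (limma adjusted p = 0.012 and 0.033).

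The myosins, the actin-based motors, gave 13 tested genes of 39. In limma 2 were higher and 0 lower (15.4%), against 9.19% of all genes tested, and the median log2 fold change was 0.028. Myo18a read 6.37, 5.52 and 5.54 FPKM with si-NC and 9.25, 8.89 and 8.52 with si-circRtn4 (log2 fold change 0.54 ± 0.081 SE, limma adjusted p = 0.010). Its groups did not overlap.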

How the data were processed

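RNA sequencing of 3 si-NC and 3 si-circRtn4 libraries of N2a cells was grouped by the sample labels. The authors deposited a table of FPKM with gene coordinates and gene lengths. The submitters' processing notes name Bowtie 0.12.2 and the builds mm8 and mm9, without roles, while 98.1% of the genes listed had the coordinates of GENCODE M21 (GRCm38), which were used here. The counting tool and strand setting are not given in the sources used here. The table holds 6 further columns of per-sample values, which were not used. Reads per library were recovered from FPKM times length, which fell on whole reads (within 0.01) for 100% of values.

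Genes averaging 1 FPKM or more were tested as log2(FPKM + 1), so fold changes of low genes are understated, with limma 3.58.1 (lmFit, eBayes with trend) in R 4.3.3, two-sided, and adjusted by the Benjamini-Hochberg method over 12749 genes. The fit was tested on simulated data. Single values had two-sided exact permutation tests. Deviations of libraries from their group mean correlated at 0.331, 0.19 and 0.226 between those of the same number and at most 0.0091 between others. Deviations within a group sum to 0, so the values between others are low in part by construction. The number was used as a block in an alternative fit, while the main fit and the permutation tests were unpaired. The labels do not say what libraries of a number share. Alternatives were a pseudocount of 0.1, all 28442 detected genes, the replicate block, 2 rescalings to equal sums (TPM, with and without Gm23935), limma-voom on recovered reads, and leaving out each library. Python 3.11.15, numpy 2.4.6, pandas 2.3.3 and matplotlib 3.10.9 were used.

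The members and lists were chosen with earlier results of these data known. Named genes were the motor genes called, the most abundant and the most changed of each class, Kif5a, Kif5b, Kif5c, Kif1a, Kif1b, Kif3a, Kif11, Dync1h1, Dctn1, at most 3 called genes per direction of the partner, cell cycle and myosin lists, Rtn4 and Chd5. Some items that this rule names are not reported here.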

Additional observations from a re-analysis of the deposited data

How the results depend on the processing

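With 3 libraries per group, few single genes passed the test and the calls moved with several settings. Over all genes tested, 556 were higher and 615 lower. These counts became 210 and 261 with all detected genes tested, 1185 and 1243 with the replicate block, 977 and 400 in TPM, and 903 and 722 in limma-voom on recovered reads. They moved less with a pseudocount of 0.1 (548 and 610) and in TPM without Gm23935 (593 and 541). Leaving out a library gave 163 to 407 higher and 217 to 419 lower, both lowest without si-NC replicate 2. Of the motor genes, 1 was higher and 1 lower. With the replicate block 3 and 4 passed, in TPM 3 and 1, in limma-voom 3 and 2, and with all detected genes 1 and 0. With a pseudocount of 0.1 and in TPM without Gm23935 the motor genes called were again Kif3c and Kif18b. Leaving out a library gave 0 to 2 in each direction. The block brought in Kifc3 and Dynlt3 (higher) and Kif23, Kifc2 and Dctn3 (lower). The cause of these moves was not tested.

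Of the transport partners, 2 were higher and 3 lower. With all detected genes 1 and 1 passed, 5 were lower with the replicate block and in limma-voom, and 1 was lower in TPM. Leaving out a library gave 0 to 1 higher and 1 to 2 lower. Of the mitotic partners, 0 were lower, with 4 under the replicate block, 2 in limma-voom and 0 to 1 without a library. Of the cell cycle genes, 0 were lower, and 6 were lower with the replicate block. Of the myosins, 2 were higher, with 1 when all detected genes were tested and 1 to 2 without a library.

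In TPM the median log2 fold change of all genes tested was 0.082. Beside this, it was 0.14 for transport kinesins, 0.061 for other kinesins and 0.038 for dynein-1 chains. It was -0.058 for dynein light chains, 0.055 for dynactin and 0.0035 for all motor genes. In TPM without Gm23935 it was -0.059 for all motor genes, beside 0.021 for all genes tested. The transport kinesin sum in TPM was 109.7% of that of si-NC. Leaving out a library moved the median to -0.073 to 0.11 for light chains, -0.22 to -0.051 for dynein light chains, -0.065 to -0.022 for dynactin and -0.096 to -0.056 for all motor genes. The mitotic kinesin median stayed negative under each alternative run, from -0.26 to -0.097 without a library.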
